A study of Mus musculus with 6 samples.

Results

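Lineage transcription factors of T cells were followed in αβ T cells sorted from mouse kidney, with the question whether CD4-CD8- (DN) cells resemble CD4 cells or CD8 cells in the genes that set those fates. The set holds 8 of the 32285 features counted in each library, chosen by gene symbol: Zbtb7b, Runx3, Tbx21, Eomes, Gata3, Id2, Id3 and Maf. All 8 were found, and all are protein-coding genes. In both kidneys the DN library lay closer to the CD4 library than to the CD8 library for 8 of the 8 genes, beside 61.1% of all genes in control and 64.3% in IR. For genes at least 2-fold apart between CD4 and CD8 that share was 83.6% in control and 58.7% in IR. DN cells held Zbtb7b at or just above the CD4 level, Eomes far below the CD8 level, and Runx3 between the 2 sorted subsets but nearer to CD4.

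A developing αβ T cell commits to the CD4 or the CD8 fate under opposing transcription factors. ThPOK, the product of Zbtb7b, holds cells in the helper lineage and keeps the CD8 program off, while Runx3 silences Cd4 and, with T-bet (Tbx21) and Eomes, drives the cytotoxic program of CD8 cells. Gata3 and c-Maf act in helper cells and many tissue T cells, and Id2 and Id3 are inhibitors that bind E proteins and keep them off DNA, Id3 in naive and memory-like cells and Id2 in effector and resident cells.

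The groups were control CD4, control CD8, control DN, IR CD4, IR CD8 and IR DN, each 1 library. All came from male wild-type C57BL/6J mice of 7 to 8 weeks, control cells from normal kidneys and IR cells from kidneys after ischemia-reperfusion, in which both renal pedicles had been clamped for 30 min. All cells were sorted as CD45+ and αβ-TCR+ and then by CD4 and CD8, so DN cells were defined by the absence of both surface proteins. The number of mice behind each library is not given in the sources used here. With 1 library per group there was no replicate and no test: values are given with exact 95% intervals that cover counting error only, and cells are not replicates. The control files carry the mark of another Cell Ranger version than the IR files, so kidney and processing version cannot be told apart, and the subsets were compared within a kidney first.

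After filtering, 48109 of 54039 barcodes were kept as cells, 8906 to 9306 per control library and 4110 to 10148 per IR library. The control libraries were much deeper, with a median of 6626.5 to 8362.5 UMIs (unique molecules) per cell against 1449.5 to 2351.5 in the IR libraries. The sort was visible in the RNA. Cd4 stood at 210.6 and 145.4 CPM in the control and IR CD4 libraries and at most 0.459 CPM in the other 4, and Cd8a stood at 867.4 and 393.9 CPM in the CD8 libraries and at most 0.247 CPM elsewhere, where CPM is the count of UMIs scaled to a common library total over retained features. Defining markers of other cells were low: the 4 tubule genes summed to 0.966 to 2.01 CPM the 11 myeloid genes to 6.35 to 31.5 CPM and the 4 B cell genes to 1.35 to 24.6 CPM, against 7154 to 9068 CPM for 8 T cell markers. The 4 endothelial genes summed to 43.8 to 128.7 CPM, nearly all of it Pecam1, which T cells also express, with Kdr, Cdh5 and Egfl7 each under 1 CPM. Of the 4 NK markers, Klrb1c was highest in the DN libraries, at 209 CPM in control and 226 CPM in IR. Tyrobp and Ncr1 were also highest in DN. Gzma was highest in CD8 instead, at 187 CPM in control and 571 CPM in IR, against 75.7 and 139 CPM in DN. Barcode sequences were shared between libraries of the same kidney, 186 in control and 206 in IR. In the IR libraries 0.848 to 3.26% of cells held no UMI of the 8 T cell markers, against 0.0967 to 0.195% in control. All 72 log2 ratios of the 8 genes between libraries stayed within their intervals when these cells were left out.

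Zbtb7b and Runx3, the pair that opposes the 2 fates, each have 2 annotated start sites, and counts from the 3′ end of transcripts cannot tell which of them was used. RefSeq promoter windows (250 bases before to 50 after a start site, build GRCm38.p6) were found for 7 of the 8 genes, 9 windows in all, and the RUNX motif TGTGGT or its reverse ACCACA was in 2 of them, against 16.8% of all 32851 windows. Those 2 are shown since they belong to these 2 genes: the second start site of Zbtb7b, inside the gene at chr3:89387622-89387921 on the minus strand, and the first start site of Runx3, at chr4:135120395-135120694 on the plus strand, with the motif in capitals.
Zbtb7b, second start site: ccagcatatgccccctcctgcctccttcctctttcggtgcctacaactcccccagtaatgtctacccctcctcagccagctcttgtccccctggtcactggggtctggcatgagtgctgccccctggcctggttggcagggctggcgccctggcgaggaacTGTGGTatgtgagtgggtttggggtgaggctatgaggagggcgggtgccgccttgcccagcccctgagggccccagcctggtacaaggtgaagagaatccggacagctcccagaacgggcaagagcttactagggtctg
Runx3, first start site: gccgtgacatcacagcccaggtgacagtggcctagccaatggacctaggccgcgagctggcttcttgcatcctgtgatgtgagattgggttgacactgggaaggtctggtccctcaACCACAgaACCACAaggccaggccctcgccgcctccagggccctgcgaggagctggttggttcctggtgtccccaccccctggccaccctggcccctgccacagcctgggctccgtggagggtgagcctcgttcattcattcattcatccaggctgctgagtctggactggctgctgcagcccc
The Runx3 window held 2 copies and the Zbtb7b window 1. Of the other motifs, searched on both strands, the T-box letters GGTGTG were in 2 of the 9 windows (19% of all windows), the GATA letters AGATAA in 0 of 9 (11.2%) and the E-box letters CANNTG in 7 of 9 (72.3%). A match describes letters in a window, not a bound site.

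Zbtb7b (ENSMUSG00000028042, chr3:89377644-89394776, minus strand) encodes ThPOK. It stood at 52.0 CPM (95% interval 50 to 54.0) in control CD4, 9.11 CPM (8.25 to 10.0) in control CD8 and 60.6 CPM (58.6 to 62.5) in control DN. The IR libraries held 42.4 CPM (39.2 to 45.7) in CD4, 5.66 CPM (3.98 to 7.79) in CD8 and 44.3 CPM (38.3 to 50.9) in DN. CD8 was low in both kidneys, and the CD4 and DN intervals overlapped in IR but not in control. The log2 ratio of DN over CD8 was 2.73 (2.59 to 2.88) in control and 2.97 (2.46 to 3.52) in IR, a 6.65-fold and a 7.83-fold difference. DN over CD4 was 0.22 (0.15 to 0.29) in control and 0.06 (-0.17 to 0.29) in IR, and the IR value was -0.08 under TMM scaling, so its sign depends on the scaling. Per cell, with each control cell thinned to 3000 retained UMIs, 13.8% of CD4, 2.62% of CD8 and 16.5% of DN cells held a Zbtb7b UMI. Unthinned shares were 23.4%, 4.07% and 31.5%. The CD8 share, the lowest, stands beside the others for comparison, and free RNA was not measured. The higher level of DN over CD8 thus went with more cells in which the transcript was seen.

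Runx3 (ENSMUSG00000070691, chr4:135120652-135177990, plus strand), the factor of the CD8 fate, was present in all 6 libraries. It stood at 165.3 CPM (161.7 to 168.8) in control CD4, 439 CPM (433 to 445) in control CD8 and 231 CPM (227 to 235) in control DN. In IR it stood at 161 CPM (155 to 167.5) in CD4, 404 CPM (389 to 420) in CD8 and 213 CPM (199.7 to 227) in DN. The order CD8, DN, CD4 was the same in both kidneys and no intervals overlapped within a kidney. DN over CD4 was 0.48 (0.45 to 0.52) on the log2 scale in control and 0.40 (0.29 to 0.51) in IR, and DN over CD8 was -0.93 in control and -0.92 in IR, just inside the 2-fold limit used to call a gene, though it passed that limit under TMM scaling in IR (-1.09). On a scale where CD8 is 0 and CD4 is 1, log2 Runx3 of DN lay at 0.656 in control and 0.696 in IR. Thinned to 3000 UMIs, 36.7% of control CD4, 67.0% of CD8 and 44.9% of DN cells held a Runx3 UMI, so the gene was seen in many cells of each subset.

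Eomes (ENSMUSG00000032446, chr9:118478212-118486132, plus strand), the T-box factor of memory and cytotoxic CD8 cells, was the most uneven of the 8. It stood at 60.2 CPM (58.0 to 62.5) in control CD8, 0.970 CPM (0.718 to 1.28) in control CD4 and 4.11 CPM (3.62 to 4.65) in control DN, from 2744, 49 and 250 UMIs. In IR the CD8 library held 28.3 CPM (24.4 to 32.7), CD4 2.06 CPM (1.41 to 2.91) and DN 2.68 CPM (1.39 to 4.69), the last from 12 UMIs. CD8 stood apart in both kidneys, and the CD4 and DN intervals overlapped in IR only. DN was 14.7-fold lower than CD8 in control (log2 -3.87) and 10.5-fold lower in IR (-3.40). Control DN was above control CD4 by 2.08 (1.64 to 2.56) on the log2 scale, with both libraries under the 10 CPM minimum, and it ran from 1.75 to 3.45 over the alternatives, the highest with cells thinned to 600 UMIs. In IR the ratio was 0.38 (-0.71 to 1.38). At 3000 UMIs, 13.3% of control CD8, 0.836% of DN and 0.145% of CD4 cells held an Eomes UMI, and unthinned shares were 17.8%, 1.36% and 0.303%. The CD4 share, the lowest of the 3, stands beside the others for comparison, from 11 cells, and free RNA was not measured.

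**Figure D1:**
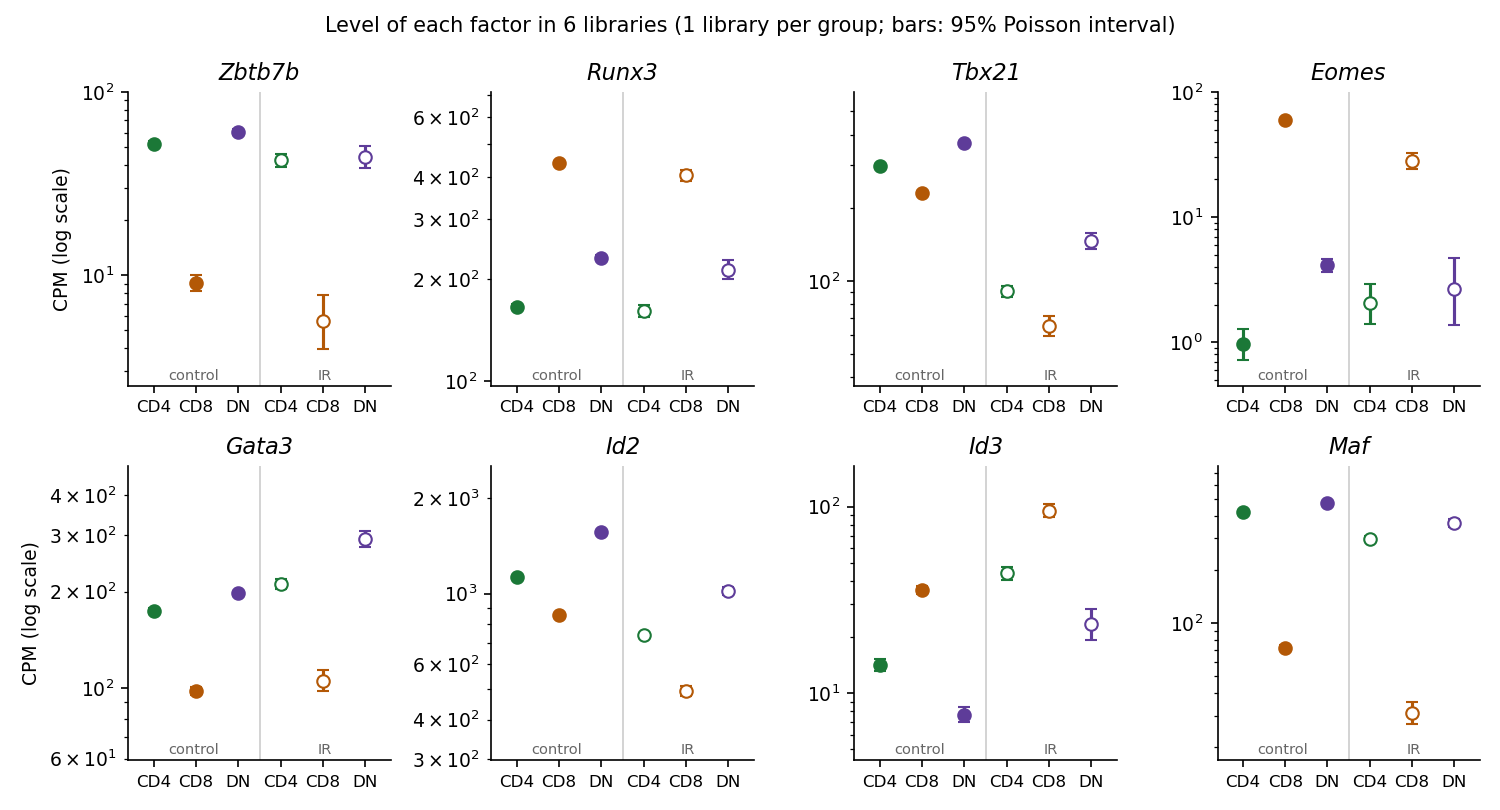
Level of each of the 8 genes in the 6 libraries, in CPM on a log axis, with filled points for control and open points for IR, colours for CD4, CD8 and DN, and bars for the exact 95% Poisson interval. The DN points sit beside the CD4 points for Zbtb7b and Maf, between CD4 and CD8 for Runx3 and Eomes, and below both for Id3.

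Tbx21, Gata3 and Maf, factors of type 1 helper and cytotoxic cells, of type 2 helper cells, and of helper and tissue T cells, were each highest in DN. Maf (ENSMUSG00000055435, chr8:115682942-115707794, minus strand) stood at 423.6, 72.2 and 473.5 CPM in control CD4, CD8 and DN and at 299.6, 31.0 and 366.8 CPM in IR. Its CD8 level was far below the other 2 in both kidneys, and DN over CD8 was 2.71 in control and 3.56 in IR on the log2 scale, while DN over CD4 was 0.16 and 0.29. At 3000 UMIs, 52.8% of control CD4, 14.6% of CD8 and 51.9% of DN cells held a Maf UMI, so control DN led CD4 in level but not in the share of cells. Gata3 (ENSMUSG00000015619, chr2:9857078-9890034, minus strand) stood at 173.6, 97.9 and 197.5 CPM in control CD4, CD8 and DN and at 211.2, 105.1 and 292.1 CPM in IR. It showed the same order with a smaller step to CD8: DN over CD8 was 1.01 in control and 1.47 in IR, and the control value was 0.93 as a mean over cells and 0.96 with cells thinned to 600 UMIs, under the 2-fold limit. Tbx21 (ENSMUSG00000001444, chr11:97098071-97115331, minus strand) stood at 298, 231 and 369.8 CPM in control CD4, CD8 and DN and at 90.4, 65.1 and 145.7 CPM in IR. CD8 was the lowest of the 3 subsets in both kidneys for this gene too, and DN over CD8 was 0.68 in control and 1.16 in IR, the latter 0.998 under TMM scaling. T-bet and Eomes thus did not go together here: DN cells had the most Tbx21 and few had any Eomes.

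The 2 inhibitors of E proteins went opposite ways in DN cells. Id2 (ENSMUSG00000020644, chr12:25093799-25097140, minus strand) stood at 1125, 852.5 and 1567 CPM in control CD4, CD8 and DN and at 738.7, 493.2 and 1016 CPM in IR. DN was the highest in both kidneys, by 0.48 over CD4 and 0.88 over CD8 in control and by 0.46 and 1.04 in IR on the log2 scale (0.88 over CD8 in IR under TMM scaling), and 94.4% of control DN cells held an Id2 UMI at 3000 UMIs against 83.5% of CD4 and 76.5% of CD8 cells. Id3 (ENSMUSG00000007872, chr4:136143497-136145755, plus strand) stood at 14.2 CPM (13.1 to 15.2) in control CD4, 35.6 CPM (33.9 to 37.4) in CD8 and 7.68 CPM (7.00 to 8.41) in DN, and at 43.9 CPM (40.6 to 47.3), 95.2 CPM (87.9 to 103) and 23.5 CPM (19.2 to 28.4) in the IR libraries. DN was the lowest in both kidneys, 4.64-fold below CD8 in control and 4.06-fold in IR. DN over CD4 was -0.88 (-1.05 to -0.71) in control and -0.90 (-1.21 to -0.60) in IR. As a mean over cells the control value was -1.14, past the 2-fold limit. The IR value ran from -1.37 without shared barcodes to -0.52 with no cell filters, and went past that limit also as a mean over cells (-1.11), under TMM scaling (-1.04), thinned to 600 UMIs (-1.03) and without barcodes lacking T cell markers (-1.11), which held 204 CPM of Id3 (159 to 258) in IR. The 129 IR barcodes removed for markers of other cell types held 398 CPM of Id3 (313 to 500.2), and the log2 ratios stayed within their intervals when these were kept.

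Set side by side, the 2 comparisons share the DN library, so their values are not independent. DN lay closer to CD4 than to CD8, by the smaller absolute log2 ratio, for 8 of 8 members in control and 8 of 8 in IR, while over all genes at 10 CPM or more the share was 61.1% in control and 64.3% in IR. Among genes at least 2-fold apart between CD4 and CD8, DN was closer to CD4 for 83.6% of 390 genes in control and 58.7% of 693 in IR, and for the members it was 5 of 5 (Zbtb7b, Runx3, Eomes, Id3 and Maf) and 6 of 6 (those and Gata3). The background was uneven by direction: of the genes higher in CD8, DN lay closer to CD4 for 79.62% in control but for 34.52% in IR, and the members higher in CD8 were Runx3, Eomes and Id3 in both kidneys. For the control kidney the members' count thus lies near a share that already held for most genes that part the subsets.

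DN was above both subsets for 5 of 8 members (Zbtb7b, Tbx21, Gata3, Id2 and Maf) in each kidney, against 30.3% of all genes in control and 44.3% in IR, and Id3 was below both. In IR the place of Zbtb7b among them is unsure: DN over CD4 was 0.062, but -0.076 under TMM scaling and -0.015 with cells thinned to 600 UMIs. By at least 2-fold, 0 of 8 members stood above both, where 0.829% of genes in control and 1.52% in IR did, and 0 of 8 stood below both, where 0.917% and 1.45% did. A gene is called here at 10 CPM or more in the higher library and a difference of at least 2-fold, with no test. Between DN and CD4, 0 of 7 members at 10 CPM were called in control and 0 of 7 in IR, against 2.77% and 8.00% of all genes, with Id3 near the limit as given above. Between DN and CD8, 5 of 8 were called in control (Zbtb7b, Eomes, Gata3, Id3 and Maf; 6.57% of genes) and 7 of 8 in IR (all but Runx3; 11.3%), though under TMM scaling Tbx21 and Id2 fell short of the limit there and Runx3 passed it. Between CD4 and CD8 the counts were 5 of 8 in control (Zbtb7b, Runx3, Eomes, Id3 and Maf; 4.38%) and 6 of 8 in IR (those and Gata3; 7.84%), where Gata3, at 1.01, was under the limit in 4 alternatives (0.98 to 0.99) and Id3, at -1.12, was at -0.95 with removed features kept in the totals and at -0.995 as a mean over cells. The median log2 ratio of DN over CD4 was 0.27 over the members in control and 0.39 in IR, beside 0.00 and 0.02 over all genes.

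**Figure D2:**
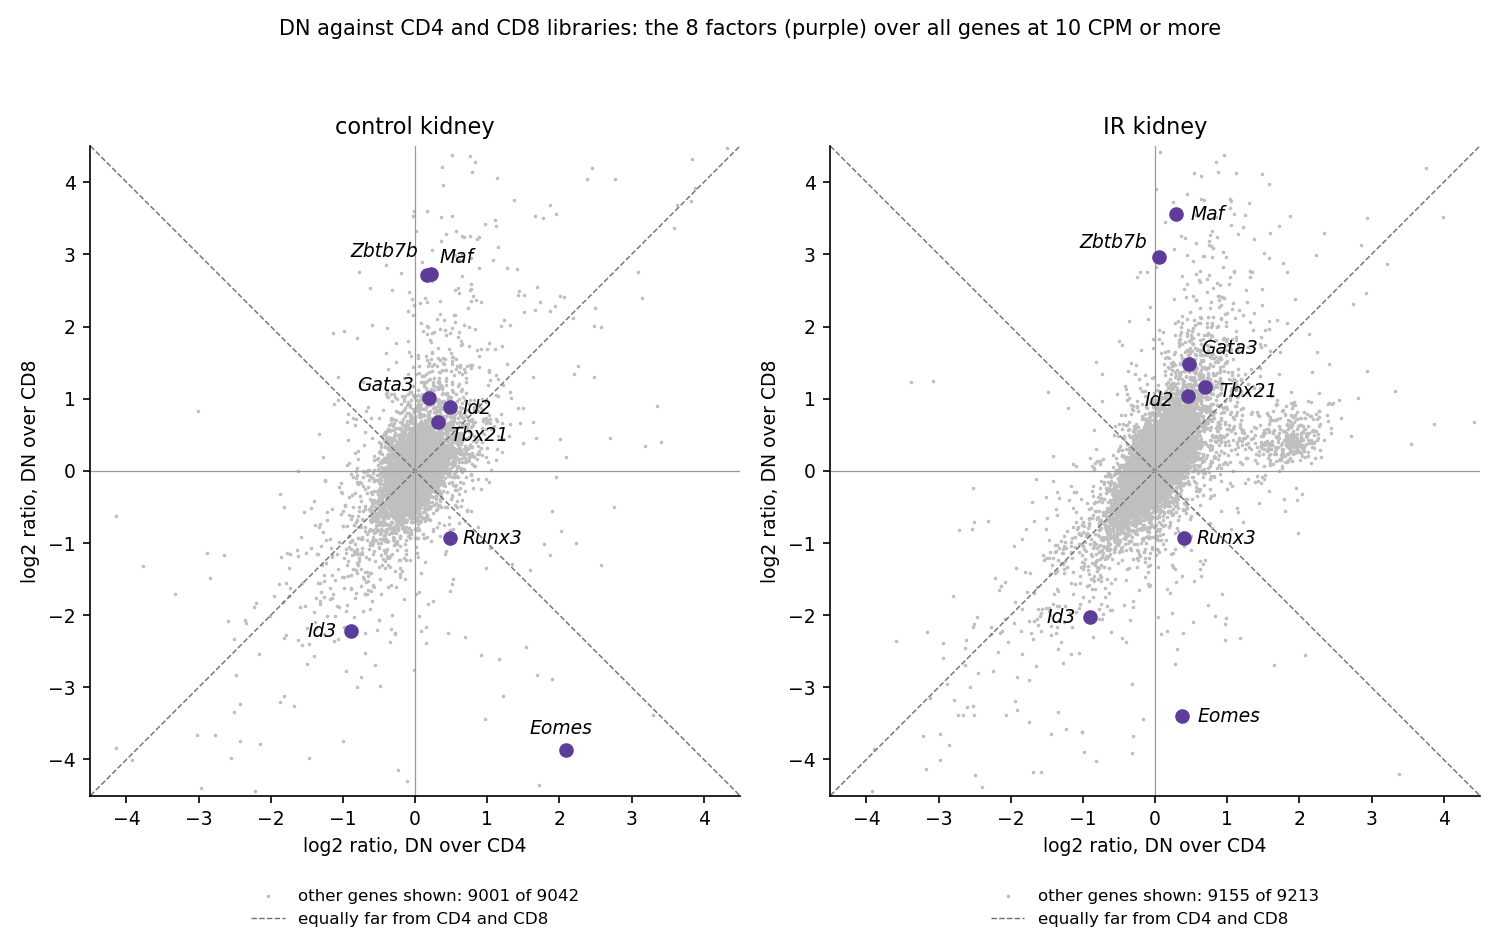
Log2 ratio of DN over CD4 (x axis) against log2 ratio of DN over CD8 (y axis) for the 8 members and for all other genes at 10 CPM or more, in control and in IR. Zbtb7b and Maf lie near 0 on the x axis and between 2.71 and 3.56 on the y axis, and Eomes lies at -3.87 in control and -3.40 in IR on the y axis.

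The partners and targets of these factors were followed in 8 lists. Of the Runx partners, the paralogs Runx1 and Runx2 and the shared subunit Cbfb, 3 of 3 were measured at 10 CPM and 0 were called above or below both subsets. Runx1 stood at 1458, 569.6 and 1189 CPM in control CD4, CD8 and DN, again with DN on the CD4 side, and Runx2 was lowest in DN at 52.8 CPM against 101 in CD4 and 145 in CD8. Of 4 E protein and Id genes, the proteins that Id2 and Id3 bind and the relative Id1, 3 were measured and 0 were called. Of 34 other T cell factors 32 reached 10 CPM in control, of which 0 were called above both and 1 below both: Tcf7, which encodes TCF1, the factor of naive and memory T cells, at 209.6, 301.5 and 83.6 CPM. In IR 31 reached the minimum and 5 were below both, Tcf7 at 360.7, 455 and 87.6 CPM and Irf4, Klf2, Batf and Tox, with 0 above both, where over all genes 1.45% were below both. DN lay closer to CD4 for 23 of 32 of these factors in control and 21 of 31 in IR, beside 61.1% and 64.3% of all genes, and for 3 of 3 and 1 of 3 of the E protein and Id genes.

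Of 17 genes of the T-bet and Eomes program, 16 reached 10 CPM in control and 0 were above both. Gzmk, a granzyme of memory CD8 cells, was below both at 22.1, 176.2 and 2.86 CPM in control CD4, CD8 and DN, the order that Eomes did not share, since Eomes was lowest in CD4. In IR 17 reached the minimum, with Xcl1, a chemokine for dendritic cells, above both at 455.6, 222 and 1274 CPM, and Il12rb2, the receptor chain for IL-12, above both at 91.3, 28.7 and 194 CPM. Gzmk and Klrg1, a receptor of effector cells, were below both in IR, so 2 of 17 were above and 2 of 17 below, beside 1.52% and 1.45% of all genes. Of 9 genes of the Gata3 program 3 were measured in each kidney and 0 were called above or below both. DN lay closer to CD4 for 3 of 3 of them in control and 2 of 3 in IR. Il4 stood at 94.3, 0.154 and 116 CPM in control CD4, CD8 and DN and at 92.5, 0 and 137 CPM in IR. Of 11 genes of the Maf and type 17 program 0 reached 10 CPM in any comparison of the subsets. Of the CD4 lineage list, Cd40lg, the ligand with which helper cells act on B cells, stood at 370.1, 37.2 and 373 CPM in control and at 242, 11.9 and 254 CPM in IR, with DN at the CD4 level, while Cd4 itself was at 0.345 and 0.447 CPM in DN. The 4 genes of the CD8 lineage list lay closer to CD4 in DN for 4 of 4 in each kidney, but for Cd8a and Cd8b1 the sort fixes this, since CD4 and DN cells were both gated as CD8-negative, which leaves Itgae and Crtam.

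ThPOK and Runx3 are known to hold each other down, so cells with both transcripts were counted. In control DN cells thinned to 3000 UMIs, 9.51% held Zbtb7b only, 37.9% Runx3 only, 6.99% both and 45.6% neither. In control CD4 cells the shares were 8.43%, 31.3%, 5.37% and 54.9%, and in CD8 cells 0.833%, 65.2%, 1.79% and 32.2%. The number of DN cells with both, 585 of 8370, was 0.944 times the 619.6 that the product of the 2 shares gives (0.869 to 1.02), and the ratio was 1.06 (0.960 to 1.17) in CD4 and 1.02 (0.844 to 1.22) in CD8. All 3 intervals included 1 at this depth. The ratio moved with depth in CD4 and less in DN. At 600 UMIs it was 0.541 (0.288 to 0.925) in control CD4, from 13 cells where 24.0 would be, 1.16 (0.617 to 1.98) in CD8 and 1.12 (0.812 to 1.51) in DN. Unthinned, where cells differ in depth, it was 1.21 (1.15 to 1.28), 1.18 (1.06 to 1.32) and 1.03 (0.989 to 1.08). In IR DN at 600 UMIs it was 1.16 (0.619 to 1.99) from 13 cells.

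Id2 and Id3 were found together less often than their shares give in all 3 control libraries, at 0.606 times (0.506 to 0.720) in CD4, 0.635 times (0.557 to 0.721) in CD8 and 0.738 times (0.590 to 0.913) in DN. In IR, at 600 UMIs, the ratio was 0.432 (0.297 to 0.607) in CD4 and 0.647 (0.472 to 0.866) in CD8, and in DN it was 0.526 (0.240 to 0.998) from 9 cells. Id3 was also seen less with Maf, at 0.632, 0.475 and 0.427 times, and with Tbx21, at 0.397, 0.576 and 0.659 times, in CD4, CD8 and DN. The Tbx21 ratio moved with depth: at 600 UMIs it was 0.831 (0.399 to 1.53) in CD4, 0.542 (0.271 to 0.970) in CD8 and 0.449 (0.0927 to 1.31) in DN, from 10, 11 and 3 cells. In DN, Eomes was seen with Maf at 0.193 times (0.0775 to 0.397) the product, 7 cells where 36.3 would be, and with Id3 at 8.82 times (4.03 to 16.7), 9 cells where 1.02 would be. In CD8 cells the same ratios were 1.27 (1.08 to 1.48) and 1.10. Zbtb7b and Eomes were met together in 1 DN cell where 11.6 would be. The pattern in DN was also there unthinned, at 0.286 times for Maf from 23 cells and 9.95 times for Id3 from 30 cells. These are counts in single libraries, and the DN values rest on few cells.

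The more abundant members were close to the product of their shares in DN. Tbx21 and Maf were both found in 30.9% of control DN cells, 1.02 times the product (0.980 to 1.06), in 27.6% of CD4 cells, 1.06 times (1.01 to 1.10), and in 7.32% of CD8 cells, 1.20 times (1.09 to 1.31). Runx3 and Maf were slightly apart in DN, at 0.942 times (0.899 to 0.986), where CD4 and CD8 gave 1.02 and 1.04. The median cell held UMIs of 3 of the 8 members in control DN and CD4 and of 2 in CD8. In 25 of 8370 DN cells (0.299%) none was found, where CD4 had 3.07% and CD8 3.84% of such cells, and 0 cells of any library held all 8.

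**Figure D3:**
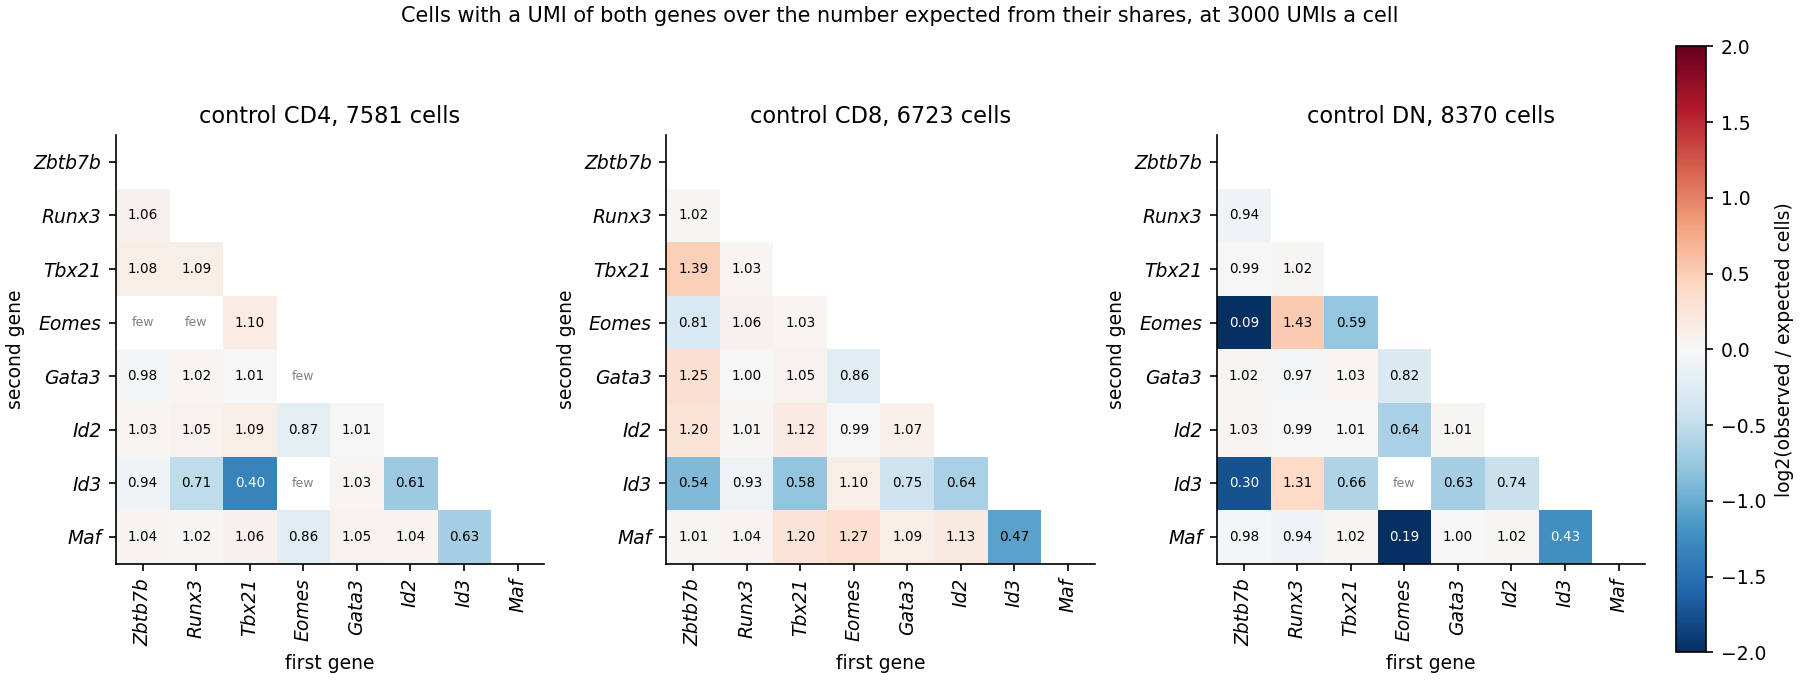
Cells with UMIs of both genes of a pair over the number the product of the 2 shares gives, for each pair of members in the 3 control libraries with cells thinned to 3000 UMIs. Pairs where fewer than 5 cells would be found by the product are marked few, and the pair of Eomes and Maf turns from 1.27 in CD8 to 0.193 in DN.

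The 70 control DN cells with an Eomes UMI at 3000 UMIs were therefore described against the 8300 without one; this split was made after the co-detection values were seen and is given with no test. Runx3 was found in 64.3% of them (51.9 to 75.4) against 44.7%, and Zbtb7b in 1.43% against 16.6%. Id2 was found in 60.0% (47.6 to 71.5) against 94.7%, Maf in 10.0% (4.12 to 19.5) against 52.2%, Tbx21 in 34.3% (23.4 to 46.6) against 58.7% and Id3 in 12.9% (6.05 to 23.0) against 1.36%. The cells with Eomes thus had more Runx3 and Id3 and less Zbtb7b, Maf, Id2 and Tbx21 than the other DN cells. They also differed in other factors: Tcf7 was found in 60.0% against 17.8%, Ikzf2, which encodes Helios, in 88.6% against 35.7%, Klf2 in 71.4% against 33.2%, and Zbtb16, which encodes PLZF, in 5.71% against 41.1%. Of the T-bet and Eomes program, Ccl5 was found in 95.7% against 54.1%, while Cxcr3 was lower at 38.6% against 66.9%, and Gzmb (2.86% against 8.49%) and Gzmk (1.43% against 0.904%) were rare on both sides. Cd40lg was found in 5.71% against 58.0%.

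None of the 70 held a UMI of Cd4, Cd8a or Cd8b1, and with a floor of 3 counts 0 of 70 allows up to 4.29% of cells with a UMI at this depth. The T cell markers were present in the 70: Cd3d was found in 92.9% against 93.8%, Cd3e in 87.1% against 89.9%, Cd3g in 94.3% against 96.8% and Trbc2 in 95.7% against 95.1%. Trac was lower, at 67.1% against 84.5%, and Cd2 (82.9% against 64.4%) and Cd247 (68.6% against 52.2%) were higher. Of the 4 NK markers, Klrb1c was found in 47.1% (35.1 to 59.5) against 32.8%, Tyrobp in 22.9% (13.7 to 34.5) against 6.31%, Ncr1 in 11.4% (5.07 to 21.3) against 2.07% and Gzma in 4.29% (0.893 to 12.02) against 2.90%. In control CD8 cells, 895 with Eomes were set against 5828 without. Maf was found in 18.4% (16.0 to 21.1) against 14.0% (13.1 to 14.9) and Runx3 in 70.8% (67.7 to 73.8) against 66.4% (65.1 to 67.6). Neither pair of intervals overlapped, though those of Runx3 only just parted, and no difference was tested. The intervals of the other 5 members overlapped, with Id2 in 75.8% against 76.6% and Id3 in 8.04% against 7.21%. In these single libraries the Runx3 share was larger with Eomes in DN and slightly so in CD8. The Maf share was smaller with Eomes in DN and larger with it in CD8. No cell type is named for the 70 cells.

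**Figure D4:**
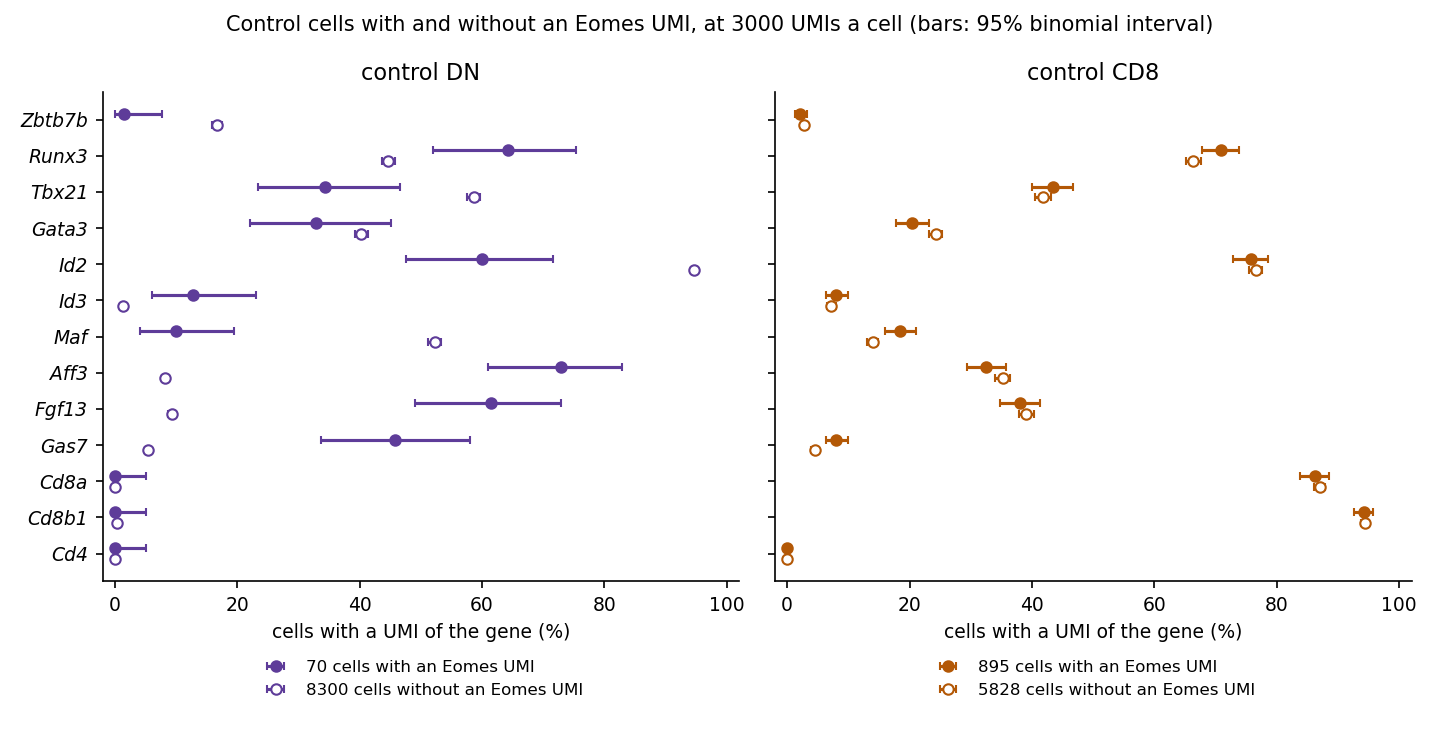
Share of cells with a UMI of each gene among cells with and without an Eomes UMI, in control DN (70 against 8300 cells) and control CD8 (895 against 5828 cells), thinned to 3000 UMIs, with exact 95% Clopper-Pearson intervals. In DN the shares of Id2 (60.0% against 94.7%) and Maf (10.0% against 52.2%) lie far apart, and in CD8 those of Id2 (75.8% against 76.6%) lie side by side.

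Since Klrb1c was highest in DN, the members were also given for DN cells with and without it, 2759 and 5611 control cells at 3000 UMIs. Maf was found in 42.7% with Klrb1c against 56.4% without, Runx3 in 51.4% against 41.7%, and Zbtb7b in 15.5% against 16.98%. Tbx21 (60.1% against 57.7%), Gata3 (40.8% against 39.9%) and Id2 (95.2% against 93.9%) differed by less than 3 points. Zbtb7b was thus present on both sides of this split.

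The genes whose detection was most like that of each member over the 8370 control DN cells were ranked by the phi coefficient, a correlation of 2 yes-or-no detections, among 7204 genes found in at least 5% of cells. The points share 1 library and sparse counts, so the values are weak and descriptive. Maf ranked highest with Chst2 (0.181), Sntb1 (0.179) and Rbpj (0.148), Id2 with Cxcr6 (0.201), a chemokine receptor of resident T cells, Fth1 (0.156) and Sh3bgrl3 (0.149), and Runx3 with Fcer1g (0.115), a signalling adaptor, Klrc2 (0.112), an NK receptor, and Cd7 (0.095). Eomes and Id3 shared Aff3 (0.208 and 0.184) and Fgf13 (0.160 and 0.138), with Gas7 (0.159) as the other gene of Eomes and Klra7 (0.145) that of Id3. For Zbtb7b (Ckb 0.060, Ccr2 0.058, Rora 0.054), Tbx21 (Ikzf3 0.050, Arsb 0.048, Pxylp1 0.045) and Gata3 (Lyst 0.046, Cxcr6 0.045, Id2 0.043) no gene came above 0.060. The value of Eomes with Aff3 was 0.006 in CD4, where 11 cells held Eomes, and -0.019 in CD8 cells; Aff3 was ranked on the DN cells, and no difference was tested.

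Between kidneys, Tbx21 was lower and Id3 higher in IR in all 3 subsets. The log2 ratio of IR over control for Tbx21 was -1.72 (-1.80 to -1.64) in CD4, -1.83 (-1.97 to -1.69) in CD8 and -1.34 (-1.46 to -1.23) in DN, and for Id3 it was 1.63 (1.48 to 1.79), 1.42 (1.28 to 1.55) and 1.61 (1.29 to 1.92). Id2 was at -0.61, -0.79 and -0.62, opposite to Id3, and at -1.21 in CD8 with the removed features kept in the totals. Over all genes the median was -0.26, -0.36 and -0.24, and 22.7%, 25.6% and 19.7% of genes were called in CD4, CD8 and DN. Of 7 members at 10 CPM in each subset, 2 were called in CD4 (Tbx21 and Id3), 4 in CD8 (those, Eomes and Maf) and 2 in DN (Tbx21 and Id3). Eomes in CD8 was at -1.09 (-1.31 to -0.88), and -0.99 with the 5% deepest barcodes kept.

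Thinned to 600 UMIs, so that cells of both kidneys stood at the same depth, the shares of Tbx21 and Id3 moved as their levels did. Tbx21 was found in 16.0% of CD4, 11.9% of CD8 and 17.6% of DN cells in control and in 4.70%, 3.54% and 8.44% in IR. Id3 was found in 0.813%, 1.88% and 0.427% in control and in 2.59%, 5.02% and 1.06% in IR. Runx3 was found in 8.97%, 21.6% and 12.6% in control and in 8.41%, 19.7% and 11.8% in IR, with hardly a shift. Gata3 in CD8 hardly shifted: it was found in 5.73% in control and 5.32% in IR, with overlapping intervals. Its log2 ratio was 0.10 (-0.01 to 0.22) unthinned and -0.04 at this depth. Fewer cells with a transcript and less RNA per cell cannot be told apart at this depth. Zbtb7b was found in 2.91%, 0.572% and 3.42% of CD4, CD8 and DN cells in control and in 2.41%, 0.270% and 2.35% in IR, with overlapping intervals for CD4 and DN in each kidney. Maf was found in 19.7%, 3.97% and 20.04% in control and in 13.2%, 1.54% and 15.9% in IR.

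The ratio of IR over control moved with intronic length over all genes, in 20 bins of genes ranked by it. The median was 0.47, 0.20 and 0.34 in CD4, CD8 and DN in the bin with the shortest introns, where Id3 lies, and -0.64, -0.65 and -0.48 in the bin of Runx3. Id3 has 468 intronic bases, Id2 904, Tbx21 14773 and Runx3 52336. Against the median of its own bin, Tbx21 was at -1.60, -1.53 and -1.14 and Id3 at 1.16, 1.22 and 1.27 in CD4, CD8 and DN, so both kept their direction. Id2 kept it too, at -1.02, -0.95 and -0.91, past the 2-fold limit in CD4. Runx3 turned from -0.04, -0.12 and -0.12 to 0.60, 0.53 and 0.36, so its direction depends on this centring. Gata3 was at 0.28, 0.10 and 0.57 and, centred, at 0.74, 0.55 and 0.90, but it was at -0.07 in CD4 and -0.31 in CD8 with the removed features kept in the totals. Maf in CD8 was at -1.22 and, centred, at -0.92. Zbtb7b was at -0.29, -0.69 and -0.45, under 2-fold in each. In CD8 it lay under 10 CPM in both kidneys and so could not be called, and its ratio there was -1.10 with removed features kept and -1.001 thinned to 600 UMIs. The part of intronic length, of the Cell Ranger version and of depth in these differences was not tested.

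**Figure D5:**
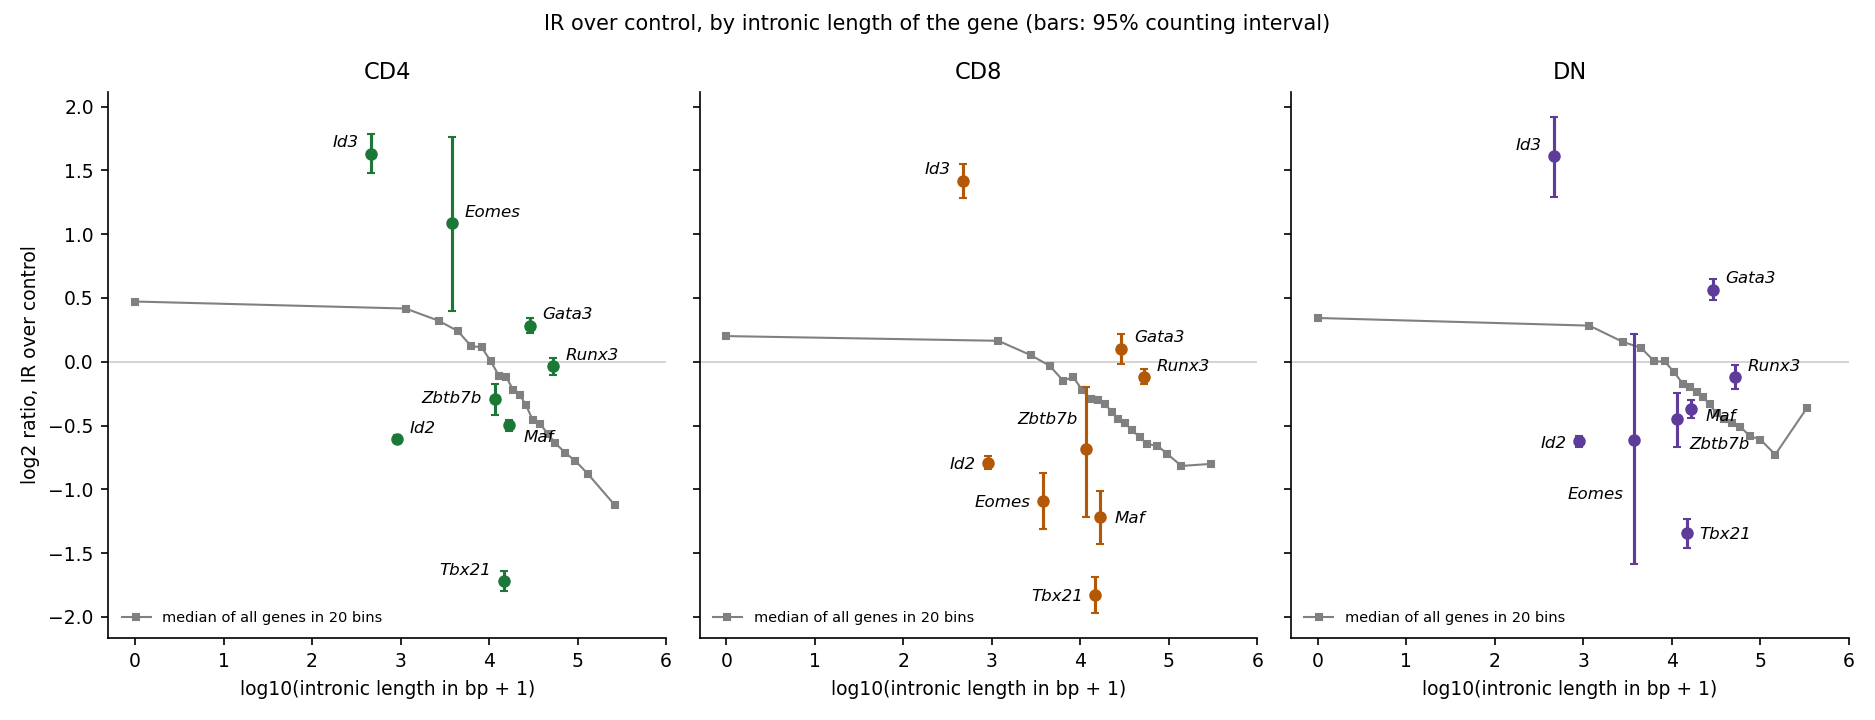
Log2 ratio of IR over control for each member (y axis) against the log10 of its intronic length in bases (x axis) in CD4, CD8 and DN, with the median of all genes in each of 20 bins of intronic length as a line. Tbx21 lies below the line and Id3 above it in all 3 panels, while Runx3 lies below 0 but above the line.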

How the data were processed

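T cells from normal and ischemic mouse kidneys were sorted and profiled with the 10x Genomics 3′ v3.1 chemistry, 1 library per group. The deposited matrices hold counts, raw UMIs per gene and barcode, made by the authors with Cell Ranger on mm10. The control file headers name version 5.0.1, and the IR headers and the submitters' processing notes name 6.0.1. The study's methods name default settings and version 6.0.1 for all samples. Whether intronic reads were counted or strand was used is not spelled out there, so genes with an overlapping partner on the other strand (Zbtb7b, Runx3, Eomes, Gata3 and Maf) are uncertain to that extent, and Gata3 also overlaps 9230102O04Rik on its own strand.

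Barcodes with at least 500 features and at most 20% mitochondrial UMIs were kept, and the 5% with most UMIs per library were removed as likely doublets, as in the study's methods, with no doublet caller. The study's clustering was replaced by a marker rule: 172 barcodes with more UMIs of 23 genes of other cell types than of 8 T cell markers were removed. Totals for CPM left out 103 features (mitochondrial genes, ribosomal protein genes and Malat1). Total retained UMIs ran from 4474279 to 60807942 per library, and PCR duplicates are collapsed in UMIs. Levels carry exact Poisson, shares exact Clopper-Pearson and ratios exact conditional 95% intervals; a count of 0 was set to 3 counts in ratios. For shares and co-detection, cells were thinned without replacement to 3000 retained UMIs in control and 600 in IR, leaving out 536 to 2583 and 24 to 103 shallower cells per library.

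Genes named were the 8 members, their 3 most alike genes and the called genes of 8 lists; a few others, such as the genes of the Eomes split, were chosen after their values were seen. Members and lists were chosen with earlier results of these data known. The rule that calls genes, the co-detection ratio and the interval of the log2 ratio were tested on simulated data. Library totals were also scaled by TMM (edgeR 4.0.16, R 4.3.3), filters, thinning depths and limits were varied, and 2 alternatives were added after the data were seen: barcodes without T cell markers left out, and centring by intronic length. Annotation was GENCODE M21 on GRCm38, which matched 32235 of 32285 features, and promoter windows came from RefSeq. Python 3.11.15, numpy 2.4.6, scipy 1.17.1 and pandas 2.3.3 were used.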

Additional observations from a re-analysis of the deposited data

Results flagged for a closer look

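Eomes moved in opposite directions between the kidneys in CD4 and CD8 cells. The log2 ratio of IR over control was 1.09 (0.40 to 1.76) in CD4, from 49 UMIs in control and 32 in IR, and -1.09 (-1.31 to -0.88) in CD8, from 2744 and 185 UMIs. With 1 library per group the difference between the subsets was not tested. The CD4 library was under 10 CPM in both kidneys, and its ratio ran from 0.73 with the removed features kept in the totals to 2.67 with cells thinned to 600 UMIs. The CD8 ratio ran from -1.51 to -0.99.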

How the results depend on the processing

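The members closer to CD4 stayed at 8 of 8 in both kidneys under each alternative run. The share of genes at least 2-fold apart between CD4 and CD8 for which DN lay closer to CD4 (83.6% in control, 58.7% in IR) was 68.15% in IR with removed features kept, 63.69% without shared barcodes and 63.43% without barcodes lacking T cell markers. It was 79.34% and 70.44% at 1.5-fold apart and, in IR, 82.84% at 4-fold. With no minimum CPM it was 56.84% and 27.57%, and with a minimum of 50 CPM 68.64% in IR. Genes called numbered 245 and 723 for DN over CD4 (control, IR), 589 and 1028 for DN over CD8, 390 and 693 for CD4 over CD8, and 2058, 2354 and 1834 for IR over control in CD4, CD8 and DN. With no minimum these were 5414, 7348, 6683, 6436, 5486, 6637, 9666, 11371 and 11347, in the same order, since genes of few counts then enter, and with a minimum of 50 CPM 101, 210, 244, 433, 142, 220, 1157, 1167 and 880. With removed features kept, IR over control in CD8 had 3558. The cause of these shifts was otherwise not tested. Between subsets, the calls of Tbx21 (0.998) and Id2 (0.88) for IR DN over CD8 were lost under TMM scaling, and that of Id3 for IR CD4 over CD8 with removed features kept (-0.95) and as a mean over cells (-0.995). The call of Gata3 for IR CD4 over CD8, at 1.01, was lost under 4 alternatives (0.98 to 0.99). Of 72 co-detection ratios in control that could be compared at 600 UMIs, 34 moved out of their interval. Leaving out a replicate was not possible with 1 library per group. No paired analysis was possible because the labels give no replicate numbers and each group has 1 library. Counts under about 30 UMIs, as for Eomes in IR DN, limit what can be said of that gene there.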
